A study of Mus musculus with 19 samples.

Results

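Chromosome 17 of the mouse carries Prdm9, the gene whose zinc fingers choose the sites of meiotic recombination. The hotspots described here are all those that the deposited tables place on chromosome 17, chosen by chromosome alone and by no measured value. There were 723 in B6/SPRT, 626 in Hum/SPRT, 369 in CAST/SPRT, 672 in STUS/B6 and 365 in STUS/Hum, or 2755 of 74327 hotspots over the 5 genotypes. They were compared with 68426 hotspots of the other 18 autosomes, and 1144 of them, below 40 Mb, were compared with the 1611 from 40 Mb on.

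PRDM9 binds DNA through an array of zinc fingers and marks nearby nucleosomes with H3K4me3, after which a double-strand break is made on the bound homolog. DMC1 coats the single-stranded DNA at the break, so that sequencing DMC1-bound single strands (DMC1 SSDS) maps the hotspots. Binding sites of an allele erode in the lineage that carries it, and in a hybrid that allele then cuts mainly the homolog of the other parent. The proximal part of chromosome 17 holds Prdm9 together with the t-complex, and the major histocompatibility complex (MHC) lies further along it. It is also the home of the Hst1 hybrid sterility locus, which is Prdm9 itself.

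Whole testis of adult males was assayed, with 1 DMC1 library for each genotype. The B6SPRTF1 males, with the strain label B6xSPRETUS, came from C57BL/6 background females and SPRET/EiJ (Mus spretus) males. B6/SPRT (B6/SPRETUS in the labels) carried the wild-type alleles of both parents. In Hum/SPRT (HUM/SPRETUS) the zinc-finger array of the B6 allele was replaced by that of the human PRDM9 B allele, and in CAST/SPRT (CAST/SPRETUS) by that of Mus musculus castaneus. The hybrids labelled B6xSTUS combine B6 with STUS/Jpia, a wild-derived strain, and carried B6 and STUS alleles (STUS/B6) or the humanized and STUS alleles (STUS/Hum). H3K4me3 was deposited for the 3 SPRT genotypes only, as 1 value for each hotspot, and was taken as pooled over 2 or 3 samples. All 3 SPRT genotypes carry the same pair of homologs apart from the Prdm9 array, and so do both STUS genotypes, so that sites shared by them are not independent.

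For each hotspot the tables hold the strength of the DMC1 signal, the PRDM9 allele to which the site was assigned, and the percentage of DMC1 reads lying on the B6 homolog. A hotspot was called matched at 25 to 75% from B6, which is where both homologs were cut appreciably. The number of reads behind a percentage is unknown, and the scaling of the signal to depth is not stated, so that signals were compared only within a library. With 1 library per genotype there was no replicate and no test. Each value of chromosome 17 was therefore set beside the same value on each other autosome of the library, and its rank among the 19 autosomes describes it. Wilson 95% intervals are given for counts of hotspots. They cover counting error only.

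Hotspot centers fell at gene starts about as often as the ground these starts cover. Windows of 300 bases around the starts of RefSeq genes cover 0.473% of chromosome 17 between 3 and 95 Mb. They held 1 of 723 centers in B6/SPRT, 4 of 626 in Hum/SPRT, 1 of 369 in CAST/SPRT, 4 of 672 in STUS/B6 and 1 of 365 in STUS/Hum, or 0.138, 0.639, 0.271, 0.595 and 0.274%. Of the centers, 61.1 to 65.3% were inside a RefSeq gene, and genes cover 49.1% of the same stretch. Of these promoter windows, the one of the lncRNA Gm33727 (chr17:25518339-25518638, plus strand, GRCm38.p6) was entered by Hum hotspots in both genotypes that carry the humanized allele. The DMC1 signal here was 53.1 in Hum/SPRT, with no B6 percentage, and 44.4 in STUS/Hum, with 60% from B6, and the hotspot centers were at bases 115 and 8 of the window. Capitals mark the 21 bases around each center, or as many as the window holds.
Gm33727: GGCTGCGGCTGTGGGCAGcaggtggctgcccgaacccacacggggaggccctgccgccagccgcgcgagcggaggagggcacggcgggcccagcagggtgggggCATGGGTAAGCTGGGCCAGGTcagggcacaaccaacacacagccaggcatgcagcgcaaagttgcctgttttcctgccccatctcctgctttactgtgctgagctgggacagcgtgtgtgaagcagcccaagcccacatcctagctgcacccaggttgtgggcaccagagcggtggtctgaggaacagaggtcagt

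Another 3 windows, chosen after their values were seen, hold other hotspots with the same marking. Clip4 (chr17:71769441-71769740, plus strand) was entered by an SPRT hotspot in Hum/SPRT, with a signal of 111 and 97.5% from B6, and in CAST/SPRT, with a signal of 38.3 and 96.8%. Prr18 (chr17:8340489-8340788, plus strand) held a STUS hotspot of STUS/B6 with a signal of 58.9 and 92.8% from B6. The lncRNA Gm33006 (chr17:79667833-79668132, minus strand) held an unassigned hotspot of STUS/B6 with a signal of 441 and 2.03% from B6. These hotspots were almost entirely on the homolog that did not come with the responsible allele, for Clip4 and Prr18, and on the STUS homolog for Gm33006. A STUS hotspot of STUS/B6 in the window of Tbc1d5, not shown, was matched, with 35.7% from B6, and SPRT hotspots of Hum/SPRT at Prss28 and Cryaa had no DMC1 percentage and 61.2 and 61.8% of H3K4me3 from B6.
Clip4: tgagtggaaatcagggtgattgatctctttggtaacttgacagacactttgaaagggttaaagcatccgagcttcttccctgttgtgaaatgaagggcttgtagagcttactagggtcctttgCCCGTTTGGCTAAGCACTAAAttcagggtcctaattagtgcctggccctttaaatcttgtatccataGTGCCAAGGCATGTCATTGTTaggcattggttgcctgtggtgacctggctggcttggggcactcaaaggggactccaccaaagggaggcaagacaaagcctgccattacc
Prr18: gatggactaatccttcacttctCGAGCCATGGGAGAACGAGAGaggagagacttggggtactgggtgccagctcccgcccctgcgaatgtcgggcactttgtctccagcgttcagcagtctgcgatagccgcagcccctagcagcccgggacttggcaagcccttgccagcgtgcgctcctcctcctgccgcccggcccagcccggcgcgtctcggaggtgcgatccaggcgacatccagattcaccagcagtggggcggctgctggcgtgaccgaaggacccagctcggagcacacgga
Gm33006: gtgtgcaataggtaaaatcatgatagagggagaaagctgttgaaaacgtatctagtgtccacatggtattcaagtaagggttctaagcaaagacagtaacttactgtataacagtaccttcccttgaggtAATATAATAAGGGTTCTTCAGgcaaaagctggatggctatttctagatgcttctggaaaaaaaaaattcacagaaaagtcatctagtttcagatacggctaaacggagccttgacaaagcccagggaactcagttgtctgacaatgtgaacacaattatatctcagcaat

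Chromosome 17 had few hotspots for an autosome, at ranks 18, 16, 16, 18 and 18 of 19 in the order above and with no account taken of length, and these were of middling strength. It held between 3.64% (STUS/Hum) and 3.98% (Hum/SPRT) of a library's autosomal hotspots, and between 3.54 and 4.10% of the autosomal signal. The first hotspot was called between positions 3033725 and 3227305 and the last between 91177574 and 94732727. The median signal was 54.7 in B6/SPRT against 54.5 on the other autosomes, 43.4 against 42.6 in Hum/SPRT, 25.4 against 26.2 in CAST/SPRT, 48.8 against 46.7 in STUS/B6 and 35.2 against 33.8 in STUS/Hum. These medians ranked between 5 and 14 among the 19 autosomes. Spacing between neighbouring hotspots had a median of 78.3 to 141 kb. In the 3 SPRT genotypes the longest stretch with no hotspot began at 37209289, 37209229 and 37004508 and was 2.34, 2.35 and 4.27 Mb long. In STUS/B6 the longest such stretch was 1.10 Mb, from 12751102 on, and in STUS/Hum it was 2.41 Mb, from 17805334 on.

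**Figure D1:**
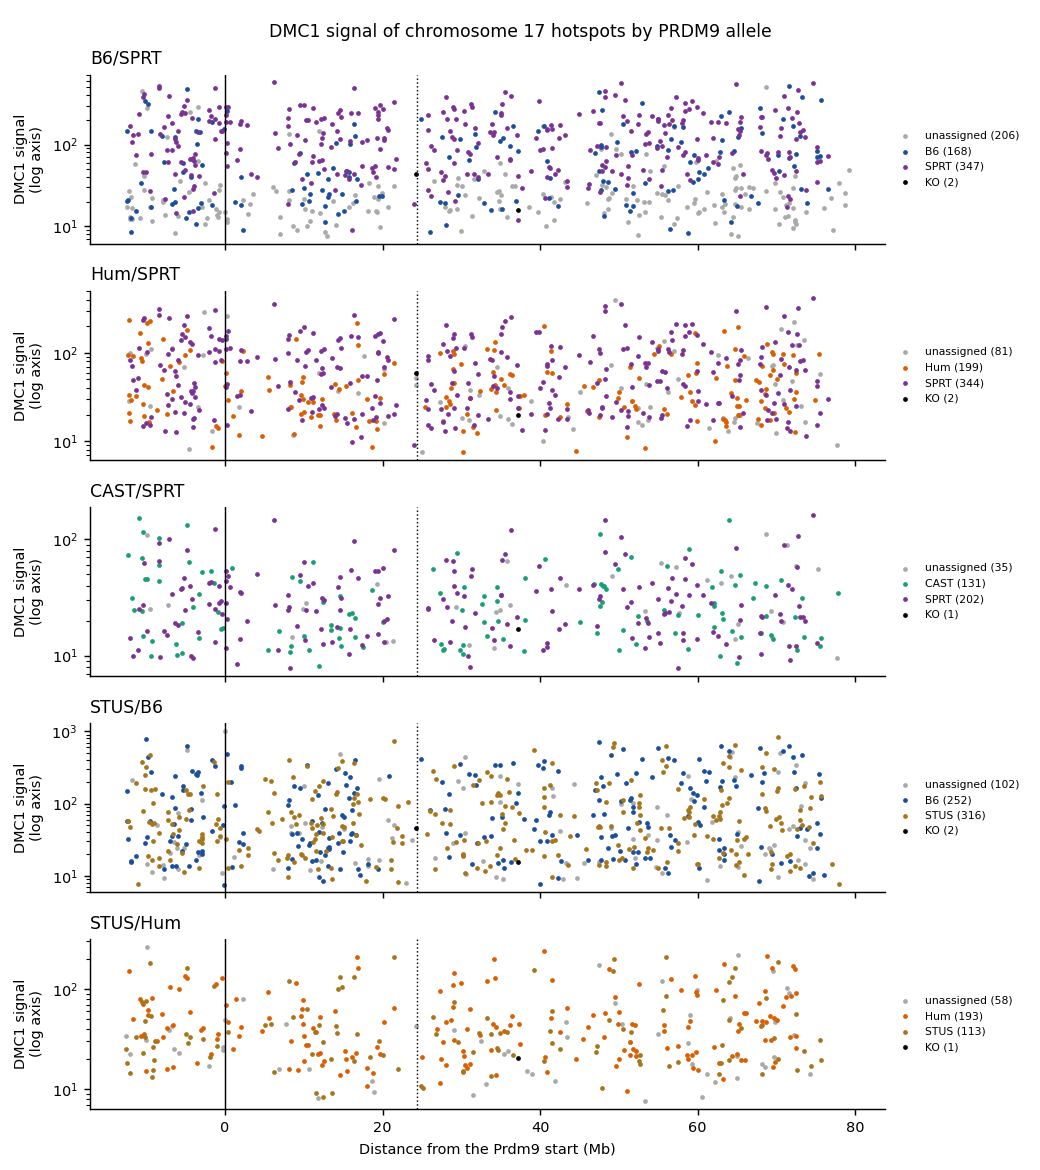
DMC1 signal (log axis) of every chromosome 17 hotspot against its distance in Mb from the start of Prdm9, 1 panel per genotype and 1 color per responsible PRDM9 allele, with the number of hotspots in brackets; the solid line marks Prdm9 and the dotted line the boundary at 40 Mb. Hotspots of both alleles of a genotype are spread along the whole chromosome, and unassigned hotspots of B6/SPRT are mostly weak, with a median signal of 20.9.

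The humanized allele took a large share of chromosome 17 and the STUS allele a small one. Hum hotspots made up 52.9% of the chromosome in STUS/Hum (95% interval 47.8 to 57.9%) against 46.9% on the other autosomes, the highest of 19, and 31.8% in Hum/SPRT (28.3 to 35.5%) against 28.4%, the second highest, with the value elsewhere just inside the interval. The STUS allele had 31.0% in STUS/Hum (26.4 to 35.9%) against 37.1%, and 47.0% in STUS/B6 (43.3 to 50.8%) against 51.4%, which was the lowest of 19 in both. Weighted by signal, the STUS share was 30.2% against 39.4% in STUS/Hum and 42.2% against 50.03% in STUS/B6, again the lowest of 19. Both STUS genotypes carry the same homologs, and the ranks were chosen for mention after they were seen.

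The SPRT allele had a small share in Hum/SPRT too, at rank 18 by count and by signal, and its interval there (51.0 to 58.8%) left out the value elsewhere. SPRT hotspots were 48.0, 55.0 and 54.7% of chromosome 17 in B6/SPRT, Hum/SPRT and CAST/SPRT, against 50.003, 58.9 and 53.4% elsewhere. CAST hotspots were 35.5% against 36.2%. The B6 allele had 23.2% against 22.2% in B6/SPRT and 37.5% against 35.2% in STUS/B6. Unassigned hotspots were 28.5% in B6/SPRT and between 9.49 and 15.9% in the other genotypes. Hotspots marked KO, which form where PRDM9 is missing, numbered 2, 2, 1, 2 and 1. They were 0.277, 0.319, 0.271 and 0.298% of chromosome 17 hotspots in B6/SPRT, Hum/SPRT, CAST/SPRT and STUS/B6. On the other autosomes the shares were 0.270, 0.483, 0.434 and 0.343%. The KO hotspots of B6/SPRT, Hum/SPRT and STUS/B6 included 1 inside Rn18s-rs5, an 18S ribosomal RNA pseudogene, at 39847776, 39847819 and 39847748, with signals of 43.3, 59.3 and 45.9. In B6/SPRT this hotspot alone held 27921 of the 160815 H3K4me3 ChIP reads over chromosome 17 hotspots, with 2442 input reads and no SNP-carrying read. The median input there was 19 reads per chromosome 17 hotspot, so its input was unusually high too. The other KO hotspot was inside Kcnh8, a potassium channel gene, at 52716518 to 52716853 in all 5 genotypes, with signals of 15.6 to 20.6.

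The B6 percentage followed the responsible allele as on the rest of the genome. SPRT hotspots were cut mainly on the B6 homolog, with 80.4, 79.3 and 82.9% of their signal from B6 in B6/SPRT, Hum/SPRT and CAST/SPRT, and STUS hotspots likewise with 86.5% in STUS/B6 and 86.0% in STUS/Hum. B6 hotspots were cut mainly on the other homolog, with 15.5% from B6 in B6/SPRT and 16.8% in STUS/B6. Hum and CAST hotspots lay between, at 55.7% for Hum in Hum/SPRT, 49.3% for Hum in STUS/Hum and 52.9% for CAST. On the other autosomes the same 10 values were 79.3, 78.6, 84.6, 84.4, 82.2, 15.8, 16.4, 53.8, 49.1 and 49.8%, none of them more than 3.83 points away.

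Matched cutting differed more. Of the signal of B6 hotspots in B6/SPRT, 21.2% was matched on chromosome 17 against 14.7% elsewhere, the highest of 19 autosomes, and the other autosomes ran from 7.92 to 20.8%. By count, 41 of 108 were matched, or 38.0% (29.4 to 47.4%), against 24.99% (23.3 to 26.7%). Hum hotspots went the other way, with 35.4% of their signal matched against 47.2% in Hum/SPRT, the lowest of 19, and 57.9% against 66.9% in STUS/Hum, the second lowest. By count these were 51 of 134 or 38.1% (30.3 to 46.5%) against 43.5%, and 98 of 167 or 58.7% (51.1 to 65.9%) against 63.9%, so that the counting intervals include the values of the other autosomes. CAST hotspots had 52.8% matched against 59.9%, SPRT hotspots 24.5, 24.3 and 19.8% against 25.9, 24.9 and 18.2%, B6 hotspots of STUS/B6 22.8% against 20.4%, and STUS hotspots 20.6% against 21.2% in STUS/B6 and 17.4% against 19.8% in STUS/Hum. In Hum/SPRT and CAST/SPRT the engineered array had a larger matched share than the SPRT allele, on chromosome 17 and elsewhere.

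Within the chromosome, the stretch below 40 Mb had more matched cutting than the rest in the SPRT genotypes. Over all alleles, 31.2% of the signal was matched below 40 Mb and 19.3% from there on in B6/SPRT, 32.3 against 24.1% in Hum/SPRT, and 40.2 against 23.6% in CAST/SPRT. These differences of 11.9, 8.15 and 16.6 points ranked 1, 2 and 1 among the 19 autosomes split at the same position, where the median differences were -3.72, -1.23 and -3.62 points. With the boundary at 30 Mb they were 7.16, 5.05 and 12.5 points, at ranks 1, 2 and 1, and at 50 Mb 10.3, 8.65 and 10.5 points, at ranks 2, 3 and 3. By count, 76 of 231 hotspots or 32.9% (27.2 to 39.2%) were matched against 71 of 302 or 23.5% (19.1 to 28.6%) in B6/SPRT, 61 of 189 or 32.3% (26.0 to 39.2%) against 74 of 267 or 27.7% (22.7 to 33.4%) in Hum/SPRT, and 52 of 127 or 40.9% (32.8 to 49.6%) against 46 of 168 or 27.4% (21.2 to 34.6%) in CAST/SPRT. The counting intervals of the 2 sides overlapped in each genotype, and in Hum/SPRT each share lay inside the other's interval. The STUS genotypes had 23.4 against 19.4% in STUS/B6 (rank 6) and 39.96 against 43.3% in STUS/Hum (rank 13). By count these were 82 of 242 or 33.9% against 116 of 355 or 32.7%, and 52 of 110 or 47.3% against 86 of 197 or 43.7%, so that STUS/Hum turned to a higher share below 40 Mb, by 3.62 points (rank 4). Counted with the boundary at 50 Mb, STUS/Hum was higher by 9.16 points (rank 1), and STUS/B6 turned to -1.46 points by signal at 30 Mb.

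The SPRT allele in all 3 of its genotypes and the B6 allele in B6/SPRT had the highest-ranked differences. SPRT hotspots had 31.6% of their signal matched below 40 Mb and 18.99% beyond in B6/SPRT, 32.7 and 17.2% in Hum/SPRT, and 31.6 and 10.1% in CAST/SPRT, each the largest difference of 19 autosomes. The largest on any other autosome was 8.92, 8.45 and 5.76 points. Counting hotspots once, SPRT was 34 of 118 against 39 of 161 in B6/SPRT, or 4.59 points and rank 3, so that in that genotype the size rests on the stronger hotspots. B6 hotspots had 40.3% matched against 11.2% by signal, and 28 of 53 against 13 of 55 by count, both 29.2 points and rank 1. These shares leave out 16 of 69 B6 hotspots below 40 Mb and 44 of 99 beyond, which had no percentage. The effect of this unequal loss on the difference was not tested. In STUS/B6, the other genotype with the B6 allele, the matched shares by signal were 26.6 and 20.7%, at rank 4, and CAST hotspots had 57.8 and 48.6%, at rank 2. With the strongest hotspot of each side left out the CAST difference fell from 9.23 to 1.66 points, while by count it was 25 of 45 against 25 of 56, or 10.9 points, at rank 2. Hum hotspots had less matched below 40 Mb in Hum/SPRT, 30.8 against 39.1%, or -2.38 points with the strongest hotspot of each side left out, and nearly the same in STUS/Hum, 57.6 against 58.1%. STUS hotspots had 20.4 against 20.8% in STUS/B6 and 17.6 against 17.2% in STUS/Hum.

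**Figure D2:**
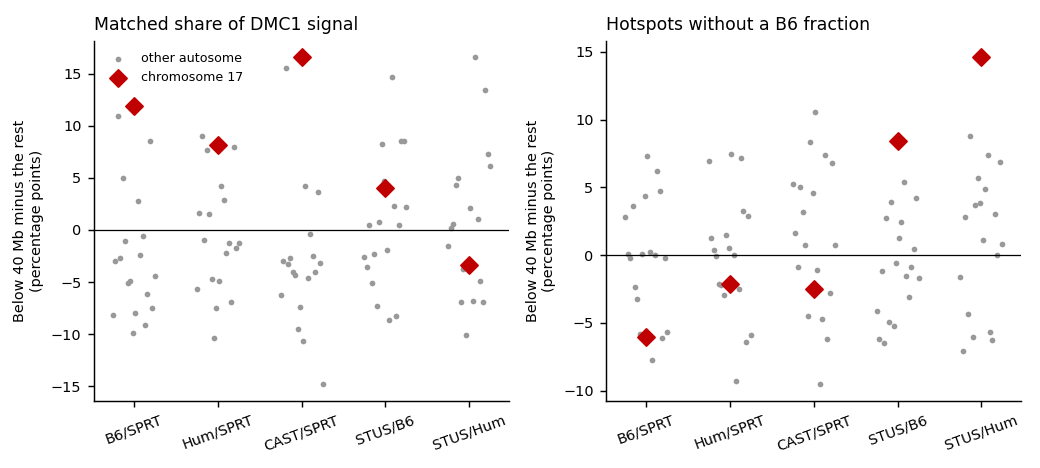
Value below 40 Mb minus the value of the rest of the chromosome, in percentage points, for the matched share of DMC1 signal (left) and the share of hotspots without a B6 fraction (right), by genotype; the diamond is chromosome 17 and each grey point 1 of the other 18 autosomes. The diamond is the highest or second highest point for matched cutting in the 3 SPRT genotypes, and the highest for missing fractions in both STUS genotypes.

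The stretch from 25 to 35 Mb, whose last part holds the MHC class II genes, was chosen after its values were seen. Matched cutting there took 46.7% of the signal in B6/SPRT, 45.2% in Hum/SPRT, 56.3% in CAST/SPRT, 36.6% in STUS/B6 and 48.0% in STUS/Hum. Among the 5 Mb windows with 20 or more hotspots with a B6 percentage, 30 to 35 Mb was the highest in B6/SPRT (51.6%), Hum/SPRT (49.2%) and STUS/B6 (50.4%), and 25 to 30 Mb in CAST/SPRT (51.4%), where only 5 windows had that many. In STUS/Hum, with 7 such windows, 45 to 50 Mb was the highest (48.4%). With fewer hotspots, 30 to 35 Mb had 62.1% in CAST/SPRT (17) and 56.8% in STUS/Hum (14), where 15 to 20 Mb with 75.5% (11), 55 to 60 Mb with 66.7% (13) and 40 to 45 Mb with 60.7% (15) were higher. The lowest windows were 85 to 90 Mb in B6/SPRT (7.79%) and CAST/SPRT (8.43%), 60 to 65 Mb in Hum/SPRT (7.73%), 15 to 20 Mb, which holds Prdm9, in STUS/B6 (2.60%), and 5 to 10 Mb in STUS/Hum (32.7%). In STUS/B6 the 15 to 20 Mb window was also the lowest in B6 percentage (26.8%) and in median signal (35.8), and 1 hotspot near Prdm9 held 32.5% of its signal. Without that hotspot its matched share was 3.87% and its B6 percentage 39.7%. With 25 to 35 Mb left out, the stretch below 40 Mb was still higher than the rest by 6.10, 4.004 and 10.6 points in B6/SPRT, Hum/SPRT and CAST/SPRT, and in STUS/B6 it was lower, by -1.72 points.

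**Figure D3:**
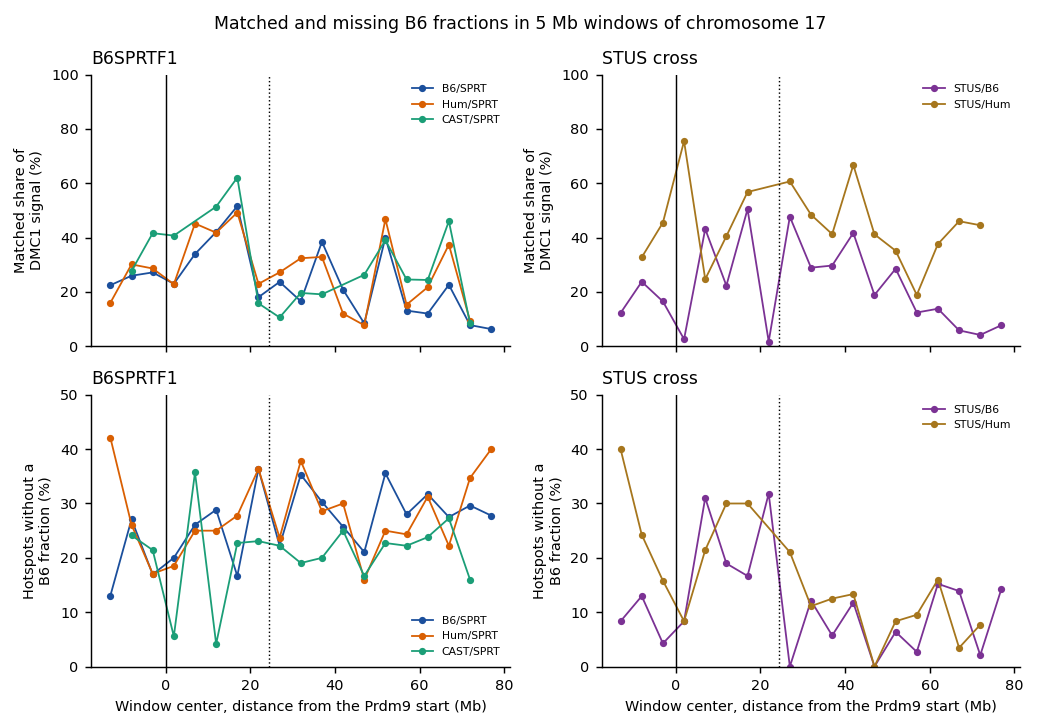
Matched share of DMC1 signal (top) and share of hotspots without a B6 fraction (bottom), in percent, in 5 Mb windows of chromosome 17 with 10 or more hotspots, against the distance of the window center from the start of Prdm9 in Mb; B6SPRTF1 genotypes on the left and the STUS cross on the right, with the solid line at Prdm9 and the dotted line at 40 Mb. The 3 SPRT genotypes rise together to 42 to 62% between 25 and 35 Mb, and missing fractions of both STUS genotypes are mostly higher left of the dotted line.

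SPRT hotspots seen in several genotypes gave nearly the same B6 percentage each time. Of the SPRT hotspots, 193 were called in all 3 SPRT genotypes with centers within 500 bp, and 158 of these had a B6 percentage in all 3, with a median range of 3.52 points over the 3 libraries. Below 40 Mb, 19 of 70 were matched in all 3, or 27.1%, and from 40 Mb on 9 of 88, or 10.2%. No such count for the other autosomes is given here. These hotspots are among those behind the SPRT differences at 40 Mb above, so the counts are not independent of them. STUS hotspots shared between STUS/B6 and STUS/Hum were less alike, with 56.3% of 87 within 10 points against 66.3% elsewhere. Their median difference, STUS/Hum minus STUS/B6, was -6.27 points, against -4.91 points elsewhere. Among B6 hotspots shared by B6/SPRT and STUS/B6, which differ in the other homolog, 57.1% of 84 were within 10 points, and among Hum hotspots shared by Hum/SPRT and STUS/Hum 29.6% of 81, against 57.7 and 37.7% elsewhere. Of all chromosome 17 hotspots, 364 were shared between B6/SPRT and Hum/SPRT, which is 50.3% of the first and 58.1% of the second, against 52.3 and 61.6% on the other autosomes. Between STUS/B6 and STUS/Hum 114 were shared, 16.96 and 31.2%, against 22.0 and 37.9% on the other autosomes.

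H3K4me3, which is laid down before the break, gave a separate readout of the same hotspots. Here a hotspot needed 20 or more SNP-carrying reads, and all but 8, 10 and 4 hotspots of the 3 SPRT genotypes had them, with medians of 221, 484.5 and 286 reads. The mark came from B6 at 62.8, 65.8 and 65.7% of reads in the same order, against 62.2, 65.3 and 65.3% on the other autosomes. H3K4me3 was matched at more hotspots than DMC1: 266 of 533 against 147 in B6/SPRT, 200 of 456 against 135 in Hum/SPRT and 122 of 294 against 98 in CAST/SPRT. The other autosomes were close to this, with 49.3% against 29.0%, 47.4% against 33.8% and 41.4% against 32.8% of hotspots. The DMC1 percentage was farther from 50% than that of H3K4me3 at 83.3, 80.7 and 73.1% of these hotspots, and 85.9, 79.9 and 69.8% elsewhere. Median H3K4me3 enrichment over input on chromosome 17 was 6.61, 5.63 and 29.4 in the same order. The effect on the H3K4me3 percentage of reads not due to PRDM9 was not tested. Over hotspots the 2 percentages had Spearman's rho of 0.92, 0.92 and 0.91, as a description, since both come from the same homologs and SNPs.

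**Figure D4:**
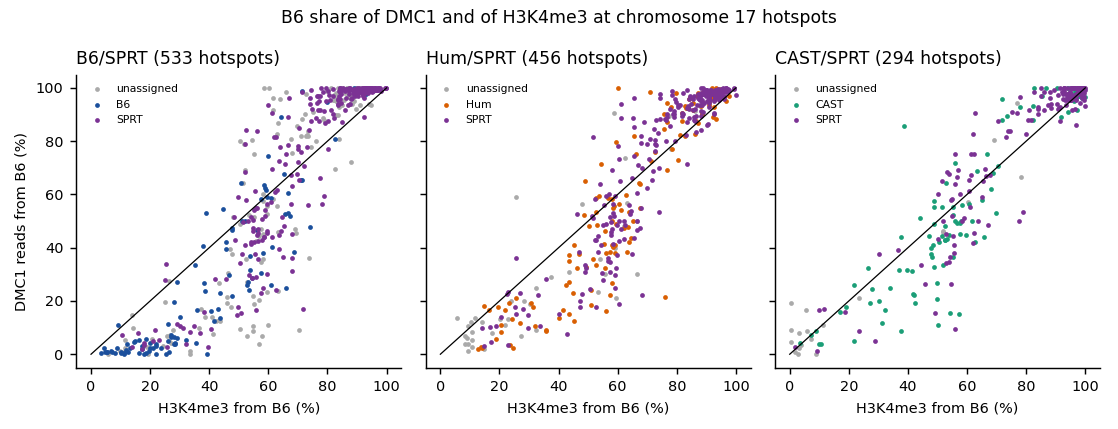
Percentage of DMC1 reads from B6 against the percentage of SNP-carrying H3K4me3 reads from B6 at chromosome 17 hotspots with both values (533, 456 and 294), by genotype, each point a hotspot colored by responsible PRDM9 allele; the line marks equal percentages. Points lie on a steep curve, with B6 hotspots at the lower left, SPRT hotspots at the upper right, and Hum and CAST hotspots spread between.

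The difference at 40 Mb was also present in H3K4me3 for the SPRT allele. Weighted by H3K4me3 enrichment over input, SPRT hotspots had 59.5% matched below 40 Mb and 42.9% beyond in B6/SPRT. The values were 58.7 and 43.6% in Hum/SPRT, and 52.7 and 28.7% in CAST/SPRT, each difference the largest of 19 autosomes. Their B6 percentage was lower below 40 Mb, 67.9 against 74.9%, 68.6 against 74.9% and 71.9 against 82.1%, each the lowest difference of 19. For the B6 allele in B6/SPRT, by contrast, H3K4me3 was matched at 63.2 and 62.7% on the 2 sides (rank 11), while the part of H3K4me3 from B6 was 43.1 against 32.8% (rank 1). These values include B6 hotspots without a DMC1 percentage. Counted over B6 hotspots with one, H3K4me3 was matched at 36 of 53 (67.9%) against 32 of 55 (58.2%). For the engineered arrays the weighted H3K4me3 share went the other way from DMC1, with CAST matched at 72.2 against 78.4% (rank 14) and Hum in Hum/SPRT at 69.7 against 66.3% (rank 8). For CAST this depended on the weighting and the hotspots used. Counted over hotspots that also had a DMC1 percentage, CAST was matched in H3K4me3 at 30 of 45 (66.7%) against 36 of 56 (64.3%), the same direction as DMC1. Hum was matched at 31 of 53 (58.5%) against 39 of 81 (48.1%), still the other way. Of the B6 hotspots with matched H3K4me3, 28 of 36 below 40 Mb were matched in DMC1 too, and 13 of 32 from 40 Mb on.

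B6 hotspots were weaker below 40 Mb than beyond. Their median DMC1 signal was 34.3 below 40 Mb and 72.2 beyond in B6/SPRT, and 39.8 and 69.6 in STUS/B6. Both differences were the lowest of 19 autosomes, where the lowest others were -21.1 and -13.7. The whole-chromosome medians of B6 hotspots on the other autosomes ran from 34.0 to 51.9 in B6/SPRT and from 45.9 to 68.6 in STUS/B6, so that in B6/SPRT the value beyond 40 Mb lay above that range and the value below it lay within, and in STUS/B6 the values lay above and below the range. B6 hotspots took 16.1% of the signal below 40 Mb in B6/SPRT against 22.9% beyond, although they were 23.1 and 23.3% of hotspots. The medians of the other alleles differed less, with 117 and 108 for SPRT in B6/SPRT, 33.1 and 35.5 for Hum in Hum/SPRT, 23.1 and 22.9 for CAST, and 51.8 and 53.8 for STUS in STUS/B6.

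Missing B6 percentages divided the 2 crosses. In STUS/B6, 46 of 288 hotspots below 40 Mb had none, or 16.0% (12.2 to 20.6%), against 29 of 384 or 7.55% (5.31 to 10.6%) beyond, and in STUS/Hum 36 of 146 or 24.7% (18.4 to 32.2%) against 22 of 219 or 10.05% (6.73 to 14.7%). The differences of 8.42 and 14.6 points were the largest of 19 autosomes, with others up to 5.37 and 8.81. STUS hotspots showed them with 15.3 against 6.70% in STUS/B6 and 25 against 4.92% in STUS/Hum, both rank 1, and Hum hotspots of STUS/Hum with 21.6 against 8.40%, at rank 2. Among windows with 20 or more hotspots, the highest shares were at 35 to 40 Mb (31.8% of 22) and 20 to 25 Mb (31.0% of 29) in STUS/B6 and at 25 to 30 Mb (30% of 30) and 30 to 35 Mb (30% of 20) in STUS/Hum, where 0 to 5 Mb had 40% of 10. In the SPRT genotypes the share was lower below 40 Mb: 22.7 against 28.8%, 25.9 against 28.0% and 18.6 against 21.1%. These differences ranked 17, 13 and 14 of 19 from the highest, and the counting intervals of the 2 sides overlapped in each genotype. In Hum/SPRT the difference was -0.395 points with the boundary at 50 Mb. B6 hotspots of B6/SPRT had the largest such difference, 23.2 against 44.4%, the lowest of 19.

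Hotspots without a B6 percentage had a lower median signal than the rest in every genotype, by far more in the STUS genotypes. In the STUS genotypes they were weak, with a median signal of 16.6 against 56.7 for the rest in STUS/B6 and 17.6 against 38.5 in STUS/Hum. Among hotspots above the library's median autosomal signal, 2.61% of STUS/B6 and 5.32% of STUS/Hum lacked a percentage, and the differences at 40 Mb became 4.11 and 6.83 points. In the SPRT genotypes the medians were closer, at 44.0 against 60.4, 40.9 against 44.1 and 24.4 against 26.3. There, 182 of 190, 160 of 170 and 71 of 74 hotspots without a DMC1 percentage had 20 or more SNP-carrying H3K4me3 reads. Weighted by H3K4me3 enrichment, 76.8, 78.7 and 74.1% of these hotspots were matched in H3K4me3, against 48.5, 49.5 and 50.8% of hotspots with a percentage. The other autosomes gave 76.9, 82.7 and 77.0% against 49.9, 52.7 and 51.5%. Matched shares of DMC1 thus leave out hotspots that were more often matched in H3K4me3.

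Prdm9 itself (chr17:15543072-15564374, minus strand, GRCm38.p6) held no hotspot in any genotype. Within 500 kb of it were 14 hotspots in B6/SPRT, 14 in Hum/SPRT, 10 in CAST/SPRT, 9 in STUS/B6 and 7 in STUS/Hum. In the SPRT genotypes 9, 9 and 8 of them were SPRT hotspots, and matched ones were 1, 1, 3, 0 and 5 in the order above, with 4, 5, 1, 1 and 0 lacking a percentage. Over the chromosome 27.6, 29.6, 33.2, 33.2 and 44.95% of hotspots with a percentage were matched, and 26.3, 27.2, 20.1, 11.2 and 15.9% of all hotspots lacked one. SPRT hotspots were 48.0, 55.0 and 54.7% of the chromosome in the SPRT genotypes. The hotspot nearest to Prdm9 was an unassigned one of B6/SPRT 37.6 kb away at 15601975, with a signal of 15.2 and 88.0% from B6. In CAST/SPRT the nearest was 118 kb away.

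The strongest chromosome 17 hotspot of STUS/B6 lay 58.7 kb from Prdm9. At 15623032, outside genes, it had a signal of 1016, the fourth highest of the library's 17309 autosomal hotspots, no assigned allele, and 0.457% from B6. At the same position Hum/SPRT had a Hum hotspot with a signal of 42.0, no DMC1 percentage and 58.5% of 323 H3K4me3 reads from B6. STUS/Hum had an unassigned hotspot at 15623021 with a signal of 48.8 and 27.0% from B6. The same place was thus cut in 3 genotypes. In STUS/B6 nearly all reads came from the STUS homolog, while in STUS/Hum the hotspot fell just inside the matched range. An SPRT hotspot at 15682781, 118 kb from Prdm9, was called in all 3 SPRT genotypes, with signals of 291, 156 and 43.9 and 69.4, 78.2 and 67.0% from B6. A B6 hotspot inside Chd1, a chromatin remodeller gene, at 15755683 in B6/SPRT and 15755535 in STUS/B6, had signals of 254 and 484 and 1.205 and 3.58% from B6. In the same gene an SPRT hotspot at 15716827 (B6/SPRT) and 15716798 (Hum/SPRT and CAST/SPRT) had 8.21, 10.5 and 4.88% from B6, low for the SPRT allele, with H3K4me3 at 33.5, 33.7 and 28.9%. A Hum hotspot at 15177671 in Hum/SPRT and 15177756 in STUS/Hum was matched in both, with 46.4 and 59.5% from B6.

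**Figure D5:**
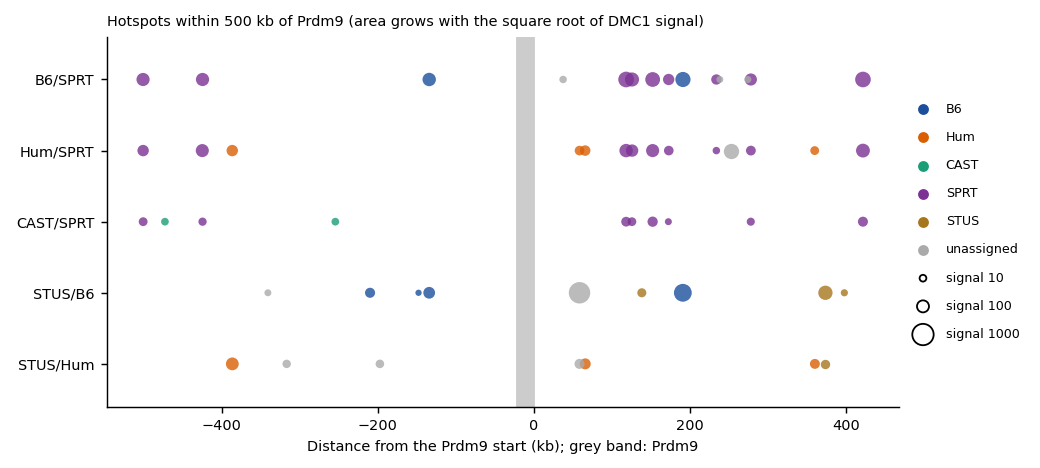
Hotspots within 500 kb of Prdm9 against their distance from its start in kb, 1 row per genotype, colored by responsible PRDM9 allele, with point area growing with the square root of DMC1 signal; the grey band is Prdm9. No hotspot falls in the band, the SPRT genotypes share a row of SPRT hotspots to the right of it, and the large grey point of STUS/B6 has a signal of 1016.

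The strongest B6, SPRT and STUS hotspots listed next were cut almost wholly on the homolog of the other parent. For B6 this was 87220976 in B6/SPRT (signal 519, 0.745% from B6) and 5570735 in Zdhhc14 in STUS/B6 (775, 0.593%). For SPRT it was 21724662 in the zinc-finger gene Zfp760 in B6/SPRT (578, 99.4%). Among STUS hotspots it was at 85807294 for STUS/B6 (841, 99.8%) and at 71558881, inside Spdya, for STUS/Hum (209, 93.9%). The strongest Hum hotspot of Hum/SPRT, at 3423447 in Tiam2, had 99.8% from B6 (signal 234). That of STUS/Hum, at 56020090 in Sh3gl1, was matched, with 38.8% (signal 238). The strongest CAST hotspot, at 4615106, had a signal of 152, no DMC1 percentage, and 0.909% of 110 H3K4me3 reads from B6. Over all alleles the strongest hotspot of STUS/Hum was unassigned, at 5709953 in Zdhhc14, with a signal of 263 and 2.30% from B6.

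Among matched hotspots, the strongest SPRT hotspot of CAST/SPRT was 31982941 in Hsf2bp, a gene required for meiotic recombination, with a signal of 96.02 and 45.4%. For the B6 allele it was 56056347 in Chaf1a, a chromatin assembly factor gene, in B6/SPRT (171, 36.7%), and 40487214 in STUS/B6 (418, 27.0%). For STUS it was 41975155 in STUS/B6 (284, 72.9%) and 30112921 in Zfand3 in STUS/Hum (132, 40.7%).

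Hotspots near well-known genes of the chromosome were taken for orientation. T, which encodes the mesoderm factor brachyury in the t-complex region, had an SPRT hotspot about 9.50 kb away in all 3 SPRT genotypes, with signals of 392, 252 and 100 and 95.7, 95.7 and 99.2% from B6, while the nearest in the STUS genotypes was 84.9 and 64.9 kb away. Tcp1, a chaperonin subunit gene, had none closer than 53.6 kb in any genotype. Msh5, which stabilizes crossover intermediates, held an SPRT hotspot at 35035102 in B6/SPRT (signal 205) and Hum/SPRT (102), and at 35035051 in CAST/SPRT (27.9). It had a B6 percentage only in Hum/SPRT, at 71.5%. In the MHC class II region, H2-Ab1 had an SPRT hotspot 2.76 kb away in B6/SPRT (51.5, 100% from B6) and 2.78 kb away in Hum/SPRT (23.5, 92.9%). That hotspot was also the nearest to H2-Eb1, at 33.7 kb in both genotypes. Psmb9, an immunoproteasome subunit gene, had a CAST hotspot 1.86 kb away in CAST/SPRT, with a signal of 37.0 and no percentage. Tnf had hotspots 20.2 to 44.5 kb away. Msh6, a mismatch repair gene, held none and had its nearest at 5.79 to 23.6 kb.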

How the data were processed

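DMC1 SSDS and H3K4me3 ChIP-seq of mouse testis, 19 samples in all, were analysed from 5 deposited hotspot tables, 1 per genotype, which were tied to genotypes by the alleles they name. The submitters' processing notes name BWA and the mm10 build, with no version. The authors deposited the DMC1 heat as a signal whose scaling to depth is not stated, and the B6 cutting value as a fraction of reads from the B6 homolog, without the reads behind it, so the DMC1 depth per sample is unknown. For the SPRT genotypes the deposited H3K4me3 columns hold ChIP and input read counts, an enrichment ratio, a B6 fraction and a count of SNP-carrying reads, and were taken as pooled over samples. The other 13 value columns, which hold p-values and marks of sharing, were not used.

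Hotspots were taken by chromosome, and KO labels were kept as deposited. Shares were weighted by DMC1 signal unless given as counts, for which 95% Wilson intervals cover counting error only. H3K4me3 values used hotspots with 20 or more SNP-carrying reads. Their B6 percentages were weighted by these reads, and matched shares, unless counted, by enrichment over input. A difference was described by the rank of chromosome 17 among 19 autosomes, with no test, since each genotype had 1 library. Shared hotspots had centers within 500 bp. Hotspots named were the strongest and the strongest matched of each allele and genotype, the KO hotspots, those within 500 kb of Prdm9, and the nearest to 10 listed genes. Members, lists and the boundary were chosen with earlier results of these data known. Gene positions and promoter sequences are from RefSeq GRCm38.p6, which shares mm10 coordinates. All 10 listed genes matched by symbol, and some of the named hotspots and genes are not reported here. Sequences away from gene starts are not shown here. Tables were read with pandas 2.3.3 and numpy 2.4.6, intervals used scipy 1.17.1 and figures matplotlib 3.10.9, under Python 3.11.15, and the functions were tested on simulated data. Alternatives covered the matched range, weighting, boundary, unassigned and missing hotspots, and the sharing distance.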

Additional observations from a re-analysis of the deposited data

Results flagged for a closer look

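The share of hotspots without a B6 percentage differed in direction between the 2 crosses. Below 40 Mb minus the rest of chromosome 17, it was -6.03, -2.15 and -2.54 points in B6/SPRT, Hum/SPRT and CAST/SPRT, against 8.42 in STUS/B6 and 14.6 in STUS/Hum. The counting intervals of the 2 sides overlapped in each SPRT genotype, and the difference between the crosses was not tested.

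The share of DMC1 signal from the B6 homolog, over all alleles, did likewise. It was lower below 40 Mb by -1.69, -6.13 and -0.573 points in the SPRT genotypes in the same order, and higher by 5.72 in STUS/B6 and 0.121 in STUS/Hum. This difference was not tested either, and 2 of the values are under 1 point.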

How the results depend on the processing

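Of 215 alternative values, 158 stayed within an interval around the value reported and 57 moved beyond it. For shares and differences this interval was computed from the number of hotspots, also where the value was weighted by signal or reads. For median signals it came from the ordered values. It takes no account of uneven weights, so the split is only a rough description. Within their intervals, 15 differences between the sides of the boundary turned in sign. For all alleles together these were STUS/B6, from 4.002 to -1.46 points at 30 Mb and -1.72 without 25 to 35 Mb, and STUS/Hum, from -3.39 to 2.26 at 50 Mb and 3.62 counted once. For single alleles they were CAST, to -4.91 at 50 Mb, B6 in STUS/B6, to -2.87 at 30 Mb and -0.613 without 25 to 35 Mb, and STUS and Hum hotspots of the STUS genotypes, whose reported differences were all under 1 point. With a matched range of 10 to 90% the matched share was 32.1% for B6 and 34.6% for SPRT in B6/SPRT, 57.4% for Hum and 38.9% for SPRT in Hum/SPRT, 69.9% for CAST and 27.9% for SPRT in CAST/SPRT, 26.0% for STUS in STUS/B6, and 75.6% for Hum and 32.1% for STUS in STUS/Hum. With 40 to 60% these were 7.99, 15.7, 21.1, 15.2, 35.6, 9.67, 7.28, 33.1 and 10.03%, and 10.6% for B6 in STUS/B6. Counting each hotspot once, it was 38.0% for B6 in B6/SPRT, 39.2% for B6 and 34.98% for STUS in STUS/B6, and 29.9% for STUS in STUS/Hum. With hotspots without a percentage counted as unmatched, it was 13.6% for B6 in B6/SPRT, 21.9% for Hum in Hum/SPRT and 39.2% for CAST. Counted once, the B6 percentage was 26.9% for B6 in B6/SPRT, 33.3% for B6 and 74.8% for STUS in STUS/B6, and 77.6% for STUS in STUS/Hum.

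Weighted by signal, the allele shares were 20.1% B6 and 69.7% SPRT in B6/SPRT, 23.9% Hum and 64.8% SPRT in Hum/SPRT, and 44.6% B6 and 42.2% STUS in STUS/B6. Without unassigned hotspots they were 32.6% B6 and 67.4% SPRT, 36.6% Hum and 63.4% SPRT, 60.7% SPRT in CAST/SPRT, 44.4% B6 and 55.6% STUS in STUS/B6, and 63.1% Hum and 36.9% STUS in STUS/Hum. Among hotspots above the library's median signal, 23.1% of B6/SPRT, 2.61% of STUS/B6 and 5.32% of STUS/Hum lacked a percentage. The median signal of hotspots with one was 56.7 and 38.5 in the STUS genotypes, STUS/B6 first. With centers within 200 bp, 45.2% of B6/SPRT was found in Hum/SPRT and 52.2% of Hum/SPRT in B6/SPRT, 50.9% of CAST/SPRT in B6/SPRT, 28.9% of Hum/SPRT in CAST/SPRT and 49.1% of CAST/SPRT in Hum/SPRT, and 20.3% of Hum/SPRT in STUS/Hum and 34.8% of STUS/Hum in Hum/SPRT. The direction of some of these moves follows from the definitions. A wider matched range can only raise the matched share. A narrower one, or counting missing percentages as unmatched, can only lower it. Leaving out unassigned hotspots can only raise the allele shares, and a shorter distance can only lower the sharing. The cause of the other moves was not tested.

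Leaving out the strongest hotspots or 25 to 35 Mb, and limiting the missing share to stronger hotspots, were chosen after seeing the data. No paired analysis was possible because each genotype has 1 DMC1 library and its H3K4me3 columns carry no replicate, and for the same reason no replicate could be left out. The unknown read numbers behind the B6 percentages limit every allele-specific value.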

Other observations

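Unassigned hotspots took more of the DMC1 signal on chromosome 17 than on any other autosome in both STUS genotypes, 13.1% against 9.89% in STUS/B6 and 13.9% against 11.02% in STUS/Hum. In STUS/B6 this includes the hotspot with a signal of 1016 near Prdm9. In the SPRT genotypes they took 10.2, 11.1 and 10.3%, against 9.89, 8.18 and 9.22% elsewhere.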
